A study of Homo sapiens with 24 samples.

Results

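The genes described here are those whose response to a CHD1 hairpin, hairpin B, depended on the cell line. They were found with an interaction contrast on raw RNA-seq counts, in which the effect of hairpin B in PM cells (hairpin B minus GFP hairpin) had the effect of hairpin B in PE cells subtracted from it. The contrast used 16 of the 24 libraries of the series, 4 in each of 4 groups, and 20820 of 59251 listed genes had enough counts to be tested. Of these, 510 (2.45%) passed an adjusted p of 0.05, 306 of them (1.47%) with a higher and 204 (0.98%) with a lower effect in PM. A positive log2 difference below means that the effect of hairpin B was more positive, or less negative, in PM than in PE.

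Both lines derive from MCF10A, an immortalised human mammary epithelial cell line that grows as adherent sheets and expresses basal keratins. The study set a MYC-transformed derivative, PM, beside a non-transformed one, PE, and asked what loss of CHD1 does in each. The 4 groups were PM cells with the CHD1 hairpin B, PM cells with a hairpin against GFP, PE cells with hairpin B and PE cells with the GFP hairpin. All cells, those with the GFP hairpin included, were grown in medium with horse serum, EGF, hydrocortisone, cholera toxin and insulin, and received doxycycline at 50 ng/ml for 72 h, so no group without doxycycline enters these comparisons. The labels number 4 biological replicates per group without saying how the cultures were separated, and p-values below measure the spread between these libraries. Whether each line was a clone or a pool of cells is not given in the sources used here. A second CHD1 hairpin, hairpin A, gave 8 further libraries, which entered the fit and are set beside hairpin B near the end.

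The CHD1 protein is an ATPase that slides nucleosomes, binds methylated histone tails at active promoters and acts behind transcribing RNA polymerase. MYC is a transcription factor that, paired with MAX, binds E-box sequences in promoters and drives growth genes. In mammary epithelium, neighbouring cells are held together by E-cadherin and by desmosomes built on a keratin network, and basal cells are fixed to the basement membrane by hemidesmosomes and laminin-332. These adhesion systems and the keratins are the features by which epithelial cells are told from mesenchymal ones.

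The targeted gene was lowered in both lines. CHD1 had 33.8, 28.6, 22.2 and 33.3 CPM (counts-per-million of the TMM-scaled library size) in the PM hairpin B libraries, against 84.9, 95.3, 86.3 and 93.4 CPM in the PM GFP libraries. In PE it had 29.8, 28.7, 23.6 and 30.2 CPM with hairpin B, against 86.8, 76.5, 74.2 and 77.6 CPM with the GFP hairpin. Hairpin B libraries thus held 32.7% of the GFP mean in PM and 35.6% in PE, with no overlap between groups. The log2 difference between the lines was -0.13 (SE 0.14) for CHD1, which missed the threshold (adjusted p = 0.807, edgeR quasi-likelihood test with Benjamini-Hochberg adjustment).

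Library totals ran from 4142862 to 80169431 counts. Replicate 1 of the PE GFP hairpin was the shallowest of these libraries, followed by replicate 2 of that group with 18893284 counts, and replicate 3 of PM hairpin B stood apart by 33137 genes with a count, where the others had 18380 to 24764. Mitochondrial ribosomal RNA made up 0.424% to 0.488% of the counts in PM hairpin B and 0.216% to 0.341% in PM GFP, and 0.429% to 0.586% in PE hairpin B and 0.272% to 0.439% in PE GFP libraries, so it was higher with hairpin B, without overlap in PM, and its part in the results was not tested. Some basal and luminal keratins were high in all groups. KRT5 averaged 1317 CPM in PM hairpin B, 1205 in PM GFP, 829.6 in PE hairpin B and 1295 in PE GFP libraries, and KRT8 and KRT18 were high throughout. Other epithelial markers were uneven. EPCAM averaged 92.8 CPM in PM hairpin B, 94.2 in PM GFP, 9.98 in PE hairpin B and 21.4 in PE GFP libraries. KRT14 averaged 1.18, 5.58, 0.529 and 39.4 CPM in the same order. The basal cell factor TP63 and the luminal receptor ESR1 were at or near 0. Marker lists of other cell types were mixed. CD3E, CDH5, VWF and COL1A2 were at or near 0, whereas the leukocyte list summed to 39.5 to 48.1 CPM in PM hairpin B and 54.9 to 59.8 in PM GFP, and 58.2 to 87.9 in PE hairpin B and 68.7 to 79.8 in PE GFP libraries, mainly from CD68 and CD14. The endothelial list summed to 2.16 to 4.01 CPM in PM hairpin B and 0.764 to 3.76 in PM GFP, and 7.10 to 11.9 in PE hairpin B and 9.43 to 11.3 in PE GFP libraries, in PE mainly from PECAM1. These are bulk samples, in which fewer cells of a type and less RNA per cell cannot be told apart.

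Hairpin B changed about as many genes in either line, 5844 in PM (28.1%, with 13.6% higher and 14.4% lower) and 5587 in PE (26.8%, with 13.6% higher and 13.2% lower). Most of the 510 line differences were in genes called in PE, and many of these were called in PM too. Of the 306 genes with a higher effect in PM, 227 fell in PE. Among these 306, 145 fell in PE without a call in PM, 55 fell in both lines but further in PE, 27 rose in PM and fell in PE, 64 rose in PM without a call in PE and 15 rose in both. Of the 204 genes with a lower effect in PM, 135 rose in PE. Among these 204, 85 rose in PE without a call in PM, 28 rose in both lines, 22 fell in PM and rose in PE, 54 fell in PM without a call in PE, 14 fell in both and 1 had no call in either line. Many called genes already differed between the lines with the GFP hairpin. Of the 306, PM GFP libraries were called lower than PE GFP libraries in 140 and higher in 66. Of the 204, they were lower in 48 and higher in 69. Over all 20820 genes they were lower in 2365 and higher in 2944. The GFP libraries also enter the line difference, so these counts are not independent of it. Without both PM hairpin B replicate 3 and PE GFP replicate 1, 369 genes were called, 248 higher and 121 lower.

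The size of the difference was uneven between the directions. A change of at least 2-fold was met by 221 genes (1.06%) on the higher side and by 53 (0.255%) on the lower side. Higher effects made up 60% of the calls with TMM scaling and 71.5% of 541 calls (387 higher, 154 lower) when library sizes alone set the scale, and 48% of 1003 calls (481 higher, 522 lower) with the replicate number as a block, so the majority of higher calls was not kept there. The median log2 value over all tested genes was -0.014 for the line difference, 0.014 for the effect in PM and 0.009 for the effect in PE.

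**Figure D1:**
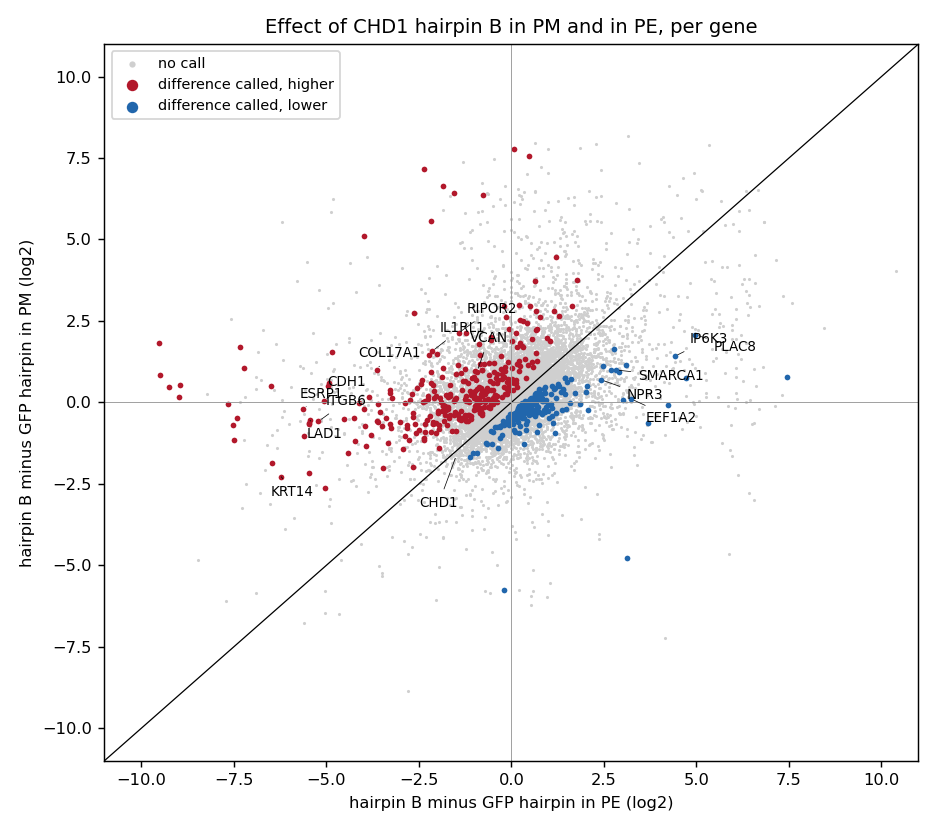
Effect of hairpin B (log2, hairpin B minus GFP hairpin) in PM on the vertical axis and in PE on the horizontal axis, 1 point per tested gene. Red points are the 306 genes called higher in the line difference, blue points the 204 called lower, grey points the rest, and the line marks equal effects. Red genes such as CDH1, ESRP1 and LAD1 lie far to the left near a PM effect of 0, and CHD1 lies close to the line.

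Among protein-coding genes with at least 5 CPM in any of the 4 groups, those with the largest higher effects in PM were genes that hairpin B strongly lowered in PE. They include the adhesion genes CDH1, LAD1 and ITGB6, the keratins KRT16 and KRT14 and the splicing regulator ESRP1. The 12 leading genes were ESRP1, CDH1, LAD1, KRT16, COL17A1, ITGB6, MAL2, GRB14, KRT14, C1orf116, IL1RL1 and FLRT3. In all 12, every PE hairpin B library was below every PE GFP library, and the PE hairpin B mean was 1.34% to 22.4% of the GFP mean. The 12 were chosen in these same libraries by a difference that holds the PE effect, so this separation follows partly from the choice. No count of such separation over all genes is given. In PM the hairpin B mean of the same genes ran from 21.2% to 292% of the GFP mean. Counts behind the low values were small, down to 1 read in a PE hairpin B library, while no PE GFP library had fewer than 32.

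CDH1 (chr16:68737292-68835537, GRCh38) encodes E-cadherin, the adhesion protein of epithelial adherens junctions. CDH1 had 26.5, 31, 25.8 and 23.9 CPM in PM hairpin B, against 28, 25.2, 24.1 and 26.7 CPM in PM GFP libraries. In PE it had 0.158, 0.687, 0.251 and 0.138 CPM with hairpin B, against 13.8, 11.1, 8.29 and 3.75 CPM with the GFP hairpin. The PM groups overlapped, and every PE hairpin B library was below every PE GFP library. The mean stood at 26.8 ± 3.00 CPM in PM hairpin B and 26 ± 1.71 CPM in PM GFP, and at 0.309 ± 0.257 CPM in PE hairpin B and 9.22 ± 4.29 CPM in PE GFP libraries (SD, n = 4 each). The log2 effect of hairpin B on CDH1 was 0.04 in PM (adjusted p = 0.952) and -5.07 in PE (adjusted p = 1.53e-07), and the line difference was 5.11 (SE 0.59, adjusted p = 2.4e-05, edgeR).

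ESRP1 encodes a splicing regulator that keeps transcripts in their epithelial isoforms. ESRP1 had 15.0, 16.3, 14.8 and 14.4 CPM in PM hairpin B, against 18.2, 16.7, 17.5 and 17.3 CPM in PM GFP libraries. In PE it had 0.237, 0.138, 0.138 and 0.0692 CPM with hairpin B, against 12.2, 8.41, 5.47 and 3.85 CPM with the GFP hairpin. Hairpin B libraries thus kept 86.7% of the GFP mean in PM and 1.94% in PE, where they held 3 to 11 reads. Its line difference was the largest of the 12 leading genes, 5.42 (SE 0.42, adjusted p = 9.58e-10, edgeR).

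LAD1 encodes ladinin, a basement membrane protein, and ITGB6 the integrin beta chain that pairs with alpha-V on epithelia and activates latent TGF-beta. LAD1 had 32.2, 37.2, 32.5 and 35.1 CPM in PM hairpin B and 50.4, 57.7, 42.4 and 50.2 CPM in PM GFP libraries. In PE, LAD1 had 0.0263, 0.321, 0.0753 and 0.0692 CPM with hairpin B and 7.34, 4.96, 4.13 and 2.5 CPM with the GFP hairpin. LAD1 therefore fell in both lines without overlap, to 68.3% of the GFP mean in PM and to 2.60% in PE, on 1 to 7 reads in PE hairpin B libraries, and the line difference was 4.89 (SE 0.48, adjusted p = 1.21e-06, edgeR). ITGB6 had 10.1, 5.93, 8.66 and 5.55 CPM in PM hairpin B and 10.9, 8.70, 12.8 and 13.2 CPM in PM GFP libraries. In PE, ITGB6 had 0.791, 0.367, 0.490 and 0.539 CPM with hairpin B and 31.4, 21.0, 21.7 and 11.1 CPM with the GFP hairpin. The PM groups of ITGB6 overlapped (log2 effect -0.58, adjusted p = 0.125), the PE groups did not, and the line difference was 4.63 (SE 0.44, adjusted p = 4.98e-07, edgeR).

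The promoters of 4 of these leading genes are shown because they share a short motif. The windows are the 250 bases before the start of each gene, 5′ to 3′ in the gene's direction, from RefSeq on GRCh38.p14. Capitals mark CACCTG or CAGGTG, which are the same E-box form read on opposite strands and which SNAI and ZEB repressors are known to bind.
LAD1, chr1:201399325-201399574, minus strand: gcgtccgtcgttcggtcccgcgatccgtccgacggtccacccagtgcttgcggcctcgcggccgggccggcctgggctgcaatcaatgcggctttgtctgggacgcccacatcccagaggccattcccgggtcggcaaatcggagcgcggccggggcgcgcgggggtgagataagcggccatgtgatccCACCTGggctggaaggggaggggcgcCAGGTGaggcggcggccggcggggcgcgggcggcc
ITGB6, chr2:160200273-160200522, minus strand: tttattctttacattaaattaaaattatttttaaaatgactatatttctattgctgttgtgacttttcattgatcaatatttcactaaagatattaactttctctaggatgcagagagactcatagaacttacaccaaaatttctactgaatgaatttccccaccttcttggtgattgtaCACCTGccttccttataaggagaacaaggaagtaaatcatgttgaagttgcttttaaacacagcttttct
GRB14, chr2:164621483-164621732, minus strand: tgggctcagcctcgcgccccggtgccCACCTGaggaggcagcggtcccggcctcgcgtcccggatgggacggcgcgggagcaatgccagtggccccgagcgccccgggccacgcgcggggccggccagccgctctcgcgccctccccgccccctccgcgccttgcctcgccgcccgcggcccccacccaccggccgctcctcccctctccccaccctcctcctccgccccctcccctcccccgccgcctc
C1orf116, chr1:207032757-207033006, minus strand: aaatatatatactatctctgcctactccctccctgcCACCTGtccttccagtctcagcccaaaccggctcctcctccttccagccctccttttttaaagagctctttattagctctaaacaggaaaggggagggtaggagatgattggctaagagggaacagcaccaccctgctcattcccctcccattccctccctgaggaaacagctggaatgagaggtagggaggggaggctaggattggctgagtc
LAD1 held the motif at -61 and -35 from its start, ITGB6 at -70, GRB14 at -224 and C1orf116 at -214. A window was listed for 7 of the 12 leading genes, and these 4 of the 7 held the motif, against 2 of the 7 windows listed for the 12 leading genes on the lower side. Over all windows of 300 bases, searched on both strands, CACCTG or CAGGTG was in 63 of 208 genes called higher (30.3%), in 24 of 154 called lower (15.6%) and in 2645 of all 13850 tested genes with a window (19.1%). This motif was chosen after the values were seen. The MYC and MAX E-box CACGTG, a different hexamer, was in 12 of 208 genes called higher (5.77%), 22 of 154 called lower (14.3%) and 1308 of 13850 in all (9.44%). It was in none of the 18 windows listed for the leading genes, those that moved in opposite directions and CHD1. Median GC content was 64.3% for genes called higher, 69.2% for those called lower and 64.3% for all, so base composition differs on the lower side. A match is a description of the letters and shows no binding.

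**Figure D2:**
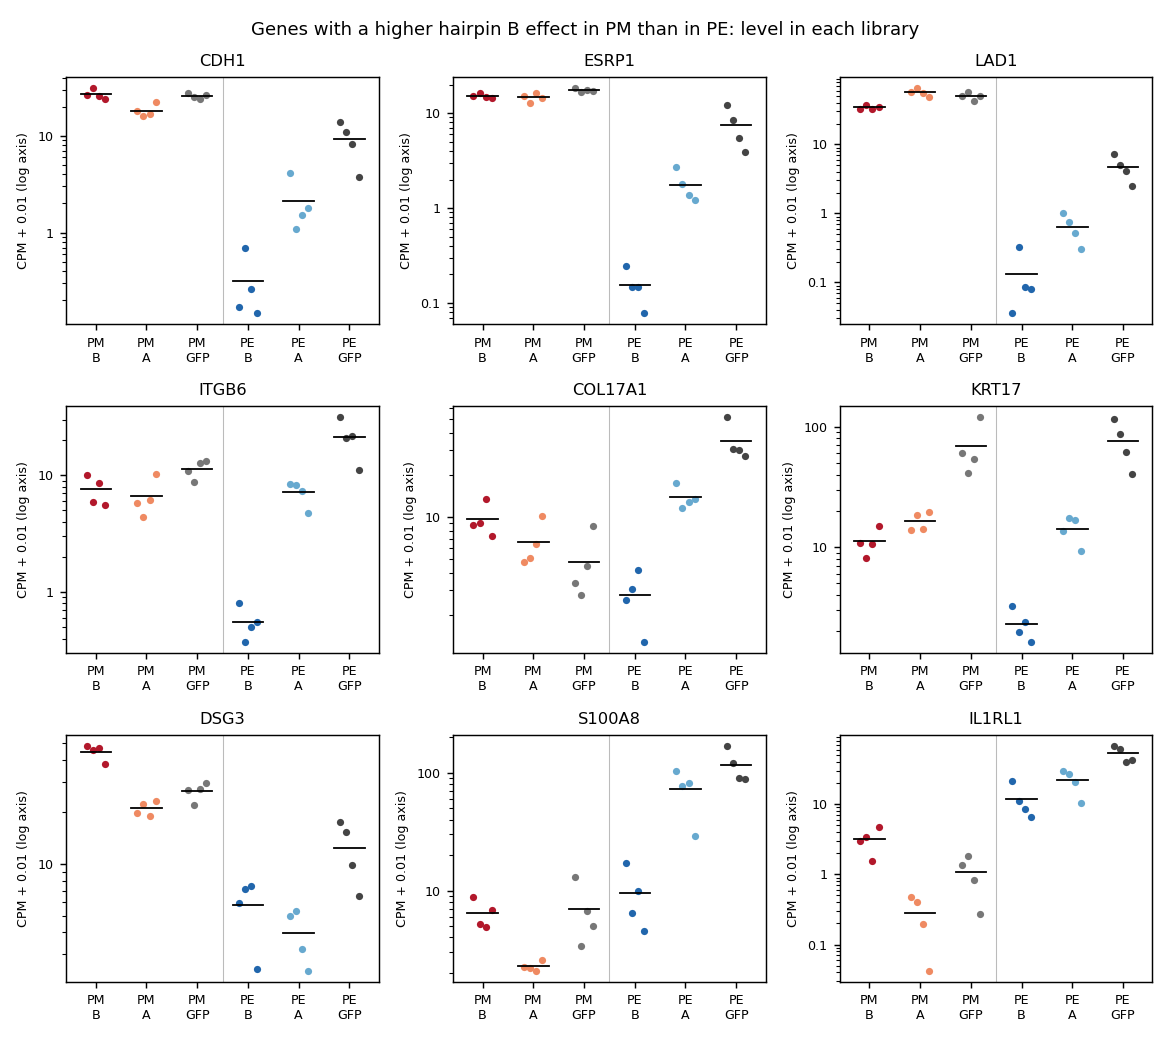
Level of 9 genes with a higher hairpin B effect in PM, in CPM plus 0.01 on a log axis, 1 point per library and a bar at the group mean, for hairpin B, hairpin A and GFP hairpin in PM (left) and PE (right). In CDH1, ESRP1 and ITGB6 the 4 PE hairpin B points lie below all other groups, and in IL1RL1 the PE GFP points are the highest.

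Among the 27 tested genes of epithelial junctions, 9 had a higher effect of hairpin B in PM and none a lower one, with a median log2 difference of 0.433 against -0.014 over all genes. Hairpin B lowered 16 of the 27 in PE and 7 in PM, and raised 2 in each line. For this list and those below, the line difference was called higher in 1.47% and lower in 0.98% of all tested genes. Hairpin B lowered 13.2% of all tested genes in PE and 14.4% in PM, and raised 13.6% in each line. Beside CDH1 the 9 were TJP3, MARVELD3, DSG3, CDH3, EPPK1, PKP2, DSP and PERP. TJP3 and MARVELD3 encode tight junction proteins: TJP3 averaged 2.01 ± 0.644 CPM in PM hairpin B and 1.19 ± 0.565 in PM GFP, and 0.248 ± 0.084 in PE hairpin B and 0.914 ± 0.4 in PE GFP libraries. MARVELD3 averaged 5.97 ± 1.22 and 5.93 ± 0.850 CPM in PM with hairpin B and GFP hairpin, and 0.255 ± 0.0885 and 1.34 ± 0.666 CPM in PE with hairpin B and GFP hairpin. Their line differences were 2.65 (adjusted p = 0.00519) and 2.40 (adjusted p = 0.00267, edgeR). The count of 9 was 7 without PM hairpin B replicate 3, and 6 without PE GFP replicate 1 or without both.

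Desmosome genes had smaller line differences than CDH1. DSG3, the desmosomal cadherin of basal and squamous epithelium, averaged 44.8 ± 4.60 CPM in PM hairpin B and 26.4 ± 3.07 in PM GFP, and 5.74 ± 2.28 in PE hairpin B and 12.3 ± 5.04 in PE GFP libraries. Its log2 effect was 0.76 in PM (adjusted p = 0.0524) and -1.01 in PE, and the line difference of 1.77 (SE 0.43, adjusted p = 0.03, edgeR) was lost in 11 of 26 other settings. DSP, which ties the desmosome to keratin, fell in both lines, by 0.34 on the log2 scale in PM and 0.85 in PE, with a line difference of 0.52 (adjusted p = 0.0355). P-cadherin, CDH3, had a line difference of 1.76 (adjusted p = 0.0149), epiplakin, EPPK1, of 1.62 (adjusted p = 0.0049), and plakophilin 2, PKP2, of 0.79 (adjusted p = 0.0492, edgeR). EPCAM, an epithelial surface protein, missed the threshold: its log2 effect was -0.02 in PM and -1.02 in PE, and the difference 1.00 (SE 0.27, adjusted p = 0.061).

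Of 23 tested genes of the basal mammary epithelium, 7 had a higher effect in PM and none a lower one, with a median log2 difference of 0.58. The 7 were the keratins KRT16, KRT14, KRT17, KRT6B, KRT6C and KRT6A and the basal cell protein TRIM29, and this count held when any single library was left out. KRT17 had 10.8, 8.18, 10.6 and 14.9 CPM in PM hairpin B, against 60.9, 41.4, 54.4 and 120 CPM in PM GFP libraries. In PE, KRT17 had 3.21, 1.97, 2.36 and 1.63 CPM with hairpin B, against 115, 87.3, 62.0 and 40.7 CPM with the GFP hairpin. KRT17 thus fell in both lines without overlap, by 2.63 on the log2 scale in PM and by 5.03 in PE. The difference was 2.40 (SE 0.51, adjusted p = 0.0116, edgeR), a call lost in 3 of 26 settings, limma-voom among them. KRT14, the partner of KRT5 in basal cells, fell likewise in both lines and averaged 1.18 ± 0.560 CPM in PM hairpin B and 5.58 ± 3.62 in PM GFP, and 0.529 ± 0.138 in PE hairpin B and 39.4 ± 13.2 in PE GFP libraries.

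KRT16, a keratin of stressed and migrating epidermis, had 4.07, 2.60, 3.17 and 12.7 CPM in PM hairpin B and 8.61, 4.03, 7.55 and 15.6 CPM in PM GFP libraries. In PE, KRT16 had 1.16, 0.641, 0.452 and 0.636 CPM with hairpin B and 46.5, 36.2, 20.6 and 22.8 CPM with the GFP hairpin. The PM groups overlapped, the PE groups did not, and the difference was 4.80 (SE 0.90, adjusted p = 0.00438, edgeR). KRT6A, KRT6B and KRT6C, and KRT14, KRT16 and KRT17, are closely similar sets with pseudogenes, and the split within each set is uncertain because the counting of reads that match several genes was not stated. KRT5 itself missed the threshold, with a log2 difference of 0.77 (SE 0.28, adjusted p = 0.207). TRIM29 was unlike the keratins, as it rose by 0.70 on the log2 scale in PM and had an effect of 0.12 in PE (adjusted p = 0.319). The summed level of the 24 listed basal genes was 2874 to 3266 CPM in PM hairpin B and 3188 to 4319 CPM in PM GFP, and 2308 to 2680 CPM in PE hairpin B and 3619 to 5203 CPM in PE GFP libraries.

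Hemidesmosome genes split. COL17A1, a transmembrane collagen of the hemidesmosome, had 8.77, 9.07, 13.4 and 7.28 CPM in PM hairpin B, against 3.35, 2.76, 4.45 and 8.62 CPM in PM GFP libraries. In PE, COL17A1 had 2.56, 3.02, 4.16 and 1.27 CPM with hairpin B, against 51.8, 30.9, 30.1 and 27.5 CPM with the GFP hairpin. It rose in PM (log2 effect 1.00, adjusted p = 0.0449), where 1 GFP library fell inside the hairpin B range, and fell in PE (log2 effect -3.64, adjusted p = 7.46e-07). The difference was 4.64 (SE 0.53, adjusted p = 2.2e-05, edgeR).

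The laminin genes LAMA3 and LAMB3, which encode basement membrane proteins that hemidesmosomes bind, were unlike each other. LAMA3 fell to 72.6 ± 3.41 CPM in PM hairpin B, against 114 ± 19.2 in PM GFP, and to 39 ± 4.95 in PE hairpin B, against 200 ± 55.9 in PE GFP libraries, with a difference of 1.70 (SE 0.24, adjusted p = 0.000226, edgeR). LAMB3 fell by 1.84 on the log2 scale in PM and by 1.91 in PE, and its difference was 0.07 (SE 0.17, adjusted p = 0.941). The integrin genes ITGA6 and ITGB4, whose products form the hemidesmosome receptor, rose in both lines with log2 differences of 0.10 (adjusted p = 0.834) and 0.23 (adjusted p = 0.868). Over the list, 3 of 11 tested genes were called higher and 1 lower, the plakin DST with -0.39 (adjusted p = 0.0205, edgeR), a call lost in 9 of 26 settings.

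S100 proteins, small calcium-binding proteins that epithelia release under stress, had 4 of 14 tested genes called higher and none lower, with a median of 0.228. S100A8 had 8.86, 5.20, 4.88 and 6.76 CPM in PM hairpin B and 13.0, 3.39, 6.67 and 4.94 CPM in PM GFP libraries. In PE, S100A8 had 17.2, 6.42, 9.96 and 4.55 CPM with hairpin B and 169, 121, 90.3 and 88.1 CPM with the GFP hairpin. S100A8 thus overlapped in PM and fell without overlap in PE, with a difference of 3.54 (SE 0.63, adjusted p = 0.00303, edgeR), and its PE hairpin B range overlapped those of both PM groups. S100A9, its binding partner, differed by 2.84 (SE 0.54, adjusted p = 0.00489). S100A14 fell in both lines and averaged 123 ± 23.6 CPM in PM hairpin B and 282 ± 44.5 in PM GFP, and 2.74 ± 0.270 in PE hairpin B and 53.5 ± 18.0 in PE GFP libraries. S100A2 differed by 1.39 (SE 0.22, adjusted p = 0.000847, edgeR).

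Genes of the mesenchymal state had calls in both directions. Of 27 tested mesenchymal genes and regulators of epithelial-mesenchymal transition, 2 were called higher (VCAN and TNC) and 2 lower (SPARC and CDH2), where 1.47% and 0.98% of all genes were, with a median of -0.061. CDH2, which encodes N-cadherin, fell in PM and rose in PE, with 51.9 ± 3.33 CPM in PM hairpin B and 61.4 ± 3.37 in PM GFP, and 64.3 ± 5.61 in PE hairpin B and 47.4 ± 3.09 in PE GFP libraries. Its difference was -0.68 (SE 0.10, adjusted p = 4.08e-05). SPARC, a matrix glycoprotein, averaged 18.6 ± 1.98 CPM in PM hairpin B and 20.8 ± 1.88 in PM GFP, and rose to 184 ± 25.8 CPM in PE hairpin B, against 110 ± 18.7 in PE GFP libraries, with a difference of -0.88 (SE 0.16, adjusted p = 0.000944, edgeR). The intermediate filament gene VIM rose in both lines, by 0.51 in PM and 0.49 in PE on the log2 scale.

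The repressors known to act on CDH1 showed no line difference past the threshold in this test. ZEB1 averaged 9.91 ± 1.23 CPM in PM hairpin B and 8.45 ± 0.948 in PM GFP, and 17.9 ± 2.77 in PE hairpin B and 16.3 ± 1.57 in PE GFP libraries, with a log2 difference of 0.08 (SE 0.21, adjusted p = 0.943). ZEB2 rose in PE (log2 effect 0.56, adjusted p = 0.0146), had an effect of 0.14 in PM (adjusted p = 0.63), and differed by -0.42 (SE 0.23, adjusted p = 0.5). For SNAI1, SNAI2 and TWIST1 the differences were 0.11 (adjusted p = 0.921), -0.06 (adjusted p = 0.963) and -0.16 (adjusted p = 0.867, edgeR). The 11 fibroblast markers summed to 41.6 to 71.4 CPM in PM hairpin B and 23.3 to 45.8 CPM in PM GFP libraries. In PE they summed to 33.6 to 53.7 CPM with hairpin B and 55.1 to 72.5 CPM with the GFP hairpin. The lower sum in PE was mainly that of DCN, a proteoglycan gene, which averaged 20.0 CPM with hairpin B and 51.6 with the GFP hairpin. COL1A1 went the other way, with 11.4 and 5.76 CPM. In PE, 3 of the 9 tested markers were called higher and 2 lower, with a median effect of 0.802. For the line difference, DCN was the call among the 9 (log2 difference 2.26, adjusted p = 0.0416, edgeR). It was lost in 13 of 26 settings, among them the fit without PE GFP replicate 1. COL1A2 was at or near 0. The part of these markers in the results was not tested.

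On the lower side, the leading genes were, except MYEF2, raised by hairpin B in PE and raised less, or not past the threshold, in PM. The 12 leading genes were EEF1A2, IP6K3, PLAC8, NRG1, SMARCA1, HBA2, NPR3, SPOCK1, ADARB1, HSPB8, MYEF2 and PISD. In all but MYEF2, every PE hairpin B library was above every PE GFP library, which again follows partly from how the genes were chosen. MYEF2, a transcription repressor, fell by 1.27 on the log2 scale in PM and had an effect of 0.35 in PE (adjusted p = 0.367, edgeR). HBA2 is near-identical to HBA1, and its call (log2 difference -1.74, adjusted p = 0.0441, edgeR) was lost in 15 of the 16 fits that left out 1 library, so no more is said of it.

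SMARCA1, the ISWI remodelling ATPase also called SNF2L, had 6.79, 7.10, 5.77 and 5.15 CPM in PM hairpin B, against 3.39, 3.37, 3.39 and 2.30 CPM in PM GFP libraries. In PE, SMARCA1 had 38.4, 40.05, 42.6 and 33.1 CPM with hairpin B, against 5.56, 4.13, 5.94 and 5.96 CPM with the GFP hairpin. It rose in both lines without overlap, 1.99-fold in PM and 7.14-fold in PE on group means, and the line difference was -1.83 (SE 0.20, adjusted p = 1.58e-07, edgeR). Of 21 listed CHD and ISWI remodelling genes, SMARCA1 and CHRAC1 were called lower and none higher. CHRAC1, a small accessory subunit of an ISWI complex, differed by -0.43, a call lost in 16 of 26 settings, among them the fit without PM hairpin B replicate 3.

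PLAC8 encodes a small cysteine-rich protein and IP6K3 an inositol hexakisphosphate kinase. PLAC8 had 5.34, 7.90, 8.69 and 5.63 CPM in PM hairpin B, against 1.48, 1.84, 1.39 and 1.81 CPM in PM GFP libraries. In PE, PLAC8 had 12.1, 15.1, 16.8 and 8.33 CPM with hairpin B, against 0.445, 0.206, 0.625 and 0.296 CPM with the GFP hairpin. The groups did not overlap in either line, the mean was 4.23-fold higher with hairpin B in PM and 33.3-fold higher in PE, and the line difference was -2.88 (SE 0.38, adjusted p = 4.35e-06, edgeR). IP6K3 had 6.20, 5.83, 7.00 and 5.05 CPM in PM hairpin B, against 1.66, 1.45, 2.27 and 3.62 CPM in PM GFP libraries. In PE, IP6K3 had 23.0, 18.1, 25.5 and 15.0 CPM with hairpin B, against 0.667, 0.568, 1.52 and 0.651 CPM with the GFP hairpin. IP6K3 was thus 2.68-fold higher in PM and 23.9-fold higher in PE, again without overlap, with a difference of -3.00 (SE 0.44, adjusted p = 0.000112, edgeR).

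PISD, the mitochondrial enzyme that makes phosphatidylethanolamine from phosphatidylserine, moved in PE. PISD had 43.5, 38.9, 38.4 and 42.4 CPM in PM hairpin B and 45.1, 52.4, 43.4 and 50.5 CPM in PM GFP libraries. In PE, PISD had 96.2, 88.7, 126 and 112 CPM with hairpin B and 35.6, 37.2, 39.6 and 48.5 CPM with the GFP hairpin. The log2 effect was -0.23 in PM (adjusted p = 0.0707) and 1.38 in PE (adjusted p = 4.62e-13), and the difference was -1.61 (SE 0.14, adjusted p = 7.49e-10, edgeR). ADARB1, an RNA-editing adenosine deaminase, had a like pattern with 31.6, 35.1, 33.7 and 24.9 CPM in PM hairpin B and 37.9, 37.95, 37.6 and 31.4 CPM in PM GFP libraries. In PE, ADARB1 had 63.7, 71.8, 96.7 and 71.5 CPM with hairpin B and 12.0, 30.9, 30.5 and 30.1 CPM with the GFP hairpin, the low value being that of the shallow library, and the line difference was -1.69 (SE 0.24, adjusted p = 0.000127, edgeR).

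EEF1A2, a translation elongation factor usually confined to muscle and nerve, averaged 1.23 ± 0.198 CPM in PM hairpin B and 1.12 ± 1.01 in PM GFP, and 6.66 ± 2.47 in PE hairpin B and 0.634 ± 0.395 in PE GFP libraries. NPR3, the natriuretic peptide clearance receptor, averaged 69.8 ± 25.2 CPM in PM hairpin B and 43.1 ± 14.5 in PM GFP, and 102 ± 27.2 in PE hairpin B and 18.7 ± 3.82 in PE GFP libraries. SPOCK1, a secreted proteoglycan, reached 63.1 ± 11.1 CPM in PM hairpin B, against 31.7 ± 8.61 in PM GFP, and 62.0 ± 14.3 in PE hairpin B, against 8.95 ± 2.87 in PE GFP libraries. The hairpin B ranges of SPOCK1 in PM and PE overlapped, and its GFP ranges did not. HSPB8, a small heat shock protein, averaged 2.79 ± 0.392 CPM in PM hairpin B and 2.24 ± 0.565 in PM GFP, and rose to 17.6 ± 2.19 in PE hairpin B, against 3.94 ± 2.22 in PE GFP libraries. NRG1, the neuregulin ligand of ERBB3, rose in both lines (log2 effects 0.93 in PM and 2.92 in PE) and differed by -1.99 (SE 0.46, adjusted p = 0.00979, edgeR).

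ERBB3, the receptor for NRG1, moved the other way. ERBB3 averaged 3.43 ± 0.390 CPM in PM hairpin B and 1.80 ± 0.333 in PM GFP, and 0.510 ± 0.212 in PE hairpin B and 2.65 ± 1.82 in PE GFP libraries. It fell in PE (log2 effect -2.17), had an effect of 0.93 in PM (adjusted p = 0.0533), and differed by 3.10 (SE 0.55, adjusted p = 0.000476, edgeR). NRG1 and ERBB3 were the calls among 12 tested EGF family ligands and receptors. DUSP6, a phosphatase that ERK signalling induces, was the call among 32 ERK feedback and immediate-early genes: it had an effect of -0.35 in PM (adjusted p = 0.0932), fell by 1.46 in PE and differed by 1.11 (SE 0.22, adjusted p = 0.00432, edgeR). The list had 2 calls without PM hairpin B replicate 3.

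**Figure D3:**
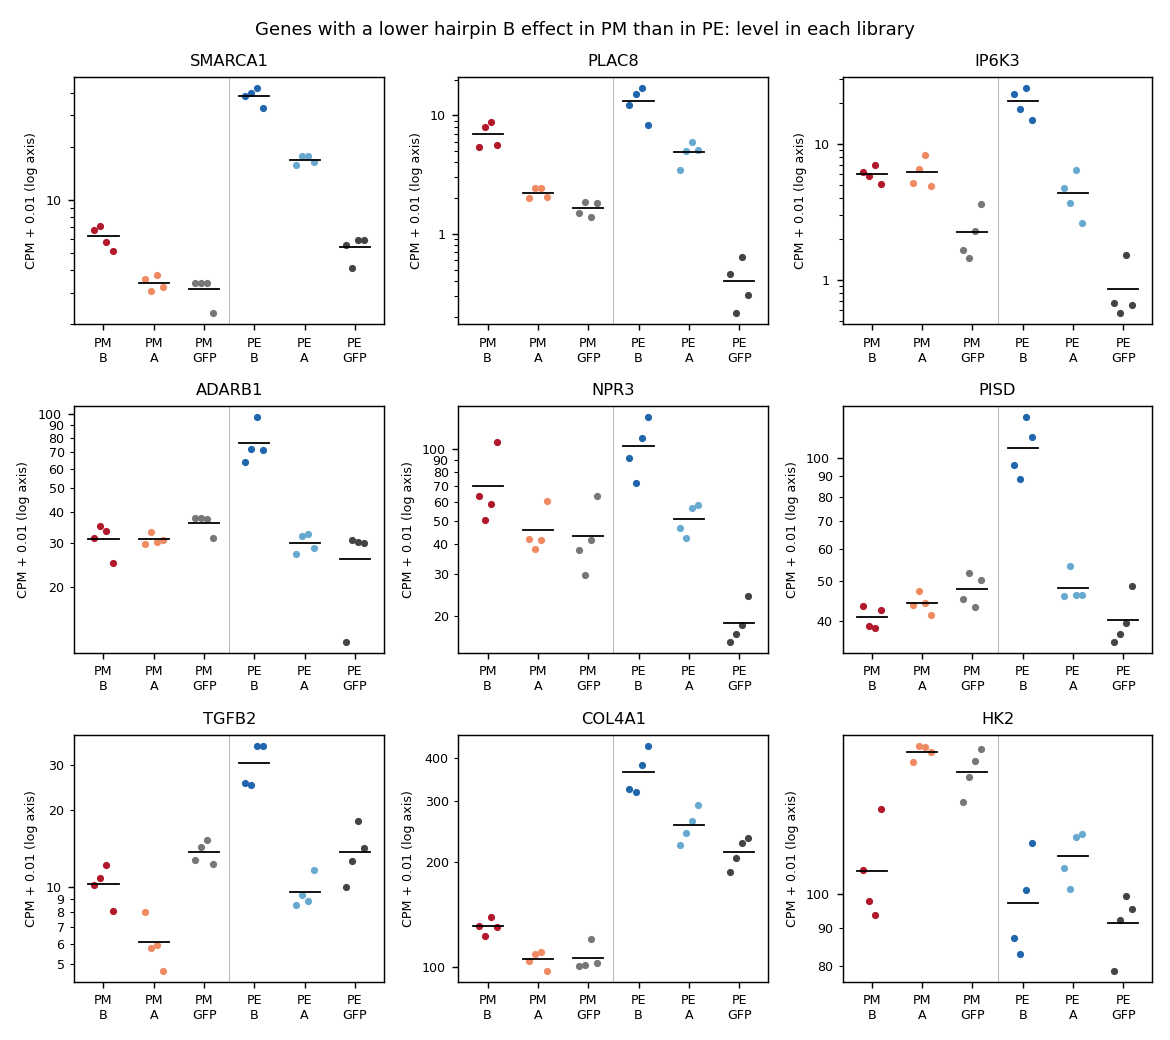
Level of 9 genes with a lower hairpin B effect in PM, in CPM plus 0.01 on a log axis, 1 point per library and a bar at the group mean, for hairpin B, hairpin A and GFP hairpin in PM (left) and PE (right). In SMARCA1, ADARB1, PISD and COL4A1 the 4 PE hairpin B points lie above all other groups. In HK2 the PM hairpin B points lie below those of PM GFP, while the PE groups overlap.

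Several secreted and matrix genes were raised more in PE. TGFB2, a TGF-beta ligand, had 10.2, 10.8, 12.2 and 8.05 CPM in PM hairpin B and 12.8, 14.3, 15.3 and 12.3 CPM in PM GFP libraries. In PE, TGFB2 had 25.6, 25.2, 35.6 and 35.6 CPM with hairpin B and 10.0, 12.7, 18.2 and 14.2 CPM with the GFP hairpin. Hairpin B libraries were below the GFP libraries in PM (log2 effect -0.41, adjusted p = 0.0544) and above them in PE (1.10, adjusted p = 2.83e-06), and the difference was -1.51 (SE 0.23, adjusted p = 5.78e-05, edgeR). It counts both among the 3 of 32 activin, TGF-beta and BMP genes and among the 5 of 19 YAP and TEAD targets called lower, and no gene of these lists was called higher. The 3 were 2 without PM hairpin B replicate 3 and likewise without PE GFP replicate 1. The other YAP and TEAD targets called were F3 (-0.83), AMOTL2 (-0.63), LATS2 (-0.56) and AJUBA (-0.50), the call of LATS2 being lost in 7 of 26 settings. The list had a median of -0.265 for the line difference. In PM 3 of the 19 rose and 7 fell, and in PE 11 rose and 3 fell. With 1 library left out the 5 calls ranged from 3, without PE hairpin B replicate 3, to 6. The further calls among the activin and TGF-beta genes were the follistatin-like FSTL3 (-0.60) and FSTL1 (-0.37), that of FSTL1 lost in 16 of 26 settings.

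Among 21 tested collagens, 3 were called lower and none higher. COL12A1, a fibril-associated collagen, rose in both lines, to 63.8 ± 7.49 CPM in PM hairpin B, against 49.3 ± 3.35 in PM GFP, and to 229 ± 15.2 CPM in PE hairpin B, against 87.5 ± 11.5 in PE GFP libraries. Its difference was -1.02 (SE 0.13, adjusted p = 2.5e-06, edgeR). The basement membrane collagens COL4A1 (-0.46) and COL4A2 (-0.44) were called as well but lost the call in 13 and 10 of 26 settings, and without PE GFP replicate 1 the count of collagens was 1. Of 19 matrix metalloproteinases and inhibitors, 3 were called higher, or 2 without both PM hairpin B replicate 3 and PE GFP replicate 1: PLAU, the urokinase gene, rose by 1.95 in PM and had an effect of 0.57 in PE (adjusted p = 0.069). TIMP1, a metalloproteinase inhibitor, rose by 0.25 in PM and fell by 0.81 in PE, with a difference of 1.06 (SE 0.12, adjusted p = 9.17e-07), and the protease inhibitor SERPINE2 differed by 1.34 (SE 0.24, adjusted p = 0.0029, edgeR).

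Most genes of sterol synthesis and of glycolysis had a negative line difference. Of 28 tested genes of cholesterol and fatty acid synthesis, 27 had a negative difference and 3 were called lower (2 without PM hairpin B replicate 3), with a median of -0.226. Hairpin B lowered 20 of the 28 in PM and 8 in PE, and raised none in PM and 3 in PE. INSIG1, a sterol sensor in the endoplasmic reticulum, averaged 42.4 ± 3.96 CPM in PM hairpin B and 34.4 ± 8.17 in PM GFP, and rose to 85.5 ± 11.1 in PE hairpin B, against 34.5 ± 4.26 in PE GFP libraries. Its difference was -1.03 (SE 0.21, adjusted p = 0.00628) and that of the desaturase SCD was -0.45 (adjusted p = 0.00756, edgeR). Of 31 glycolysis and hypoxia genes, 30 had a negative difference, with a median of -0.403. Hairpin B raised 15 of the 31 in PE and 1 in PM, yet only the hexokinase gene HK2 was called for the difference (-0.53, adjusted p = 0.0286, edgeR), and no gene was called without PM hairpin B replicate 3 or without PE GFP replicate 1. Over all tested genes, 10035 of 20820 had a positive difference. Lists outside metabolism leaned negative too. A positive difference was found in 19 of 74 cytosolic ribosomal protein genes, 9 of 40 mitosis genes and 3 of 20 endoplasmic reticulum chaperone genes. Nuclear genes of oxidative phosphorylation (35 of 58 positive, median 0.015) and genes of nucleotide and one-carbon synthesis (17 of 28 positive, median 0.031) did not lean this way. None of either list was called by edgeR, DESeq2 or limma-voom, with 0 and 1 at an unadjusted p under 0.05, and 1 nucleotide gene was called lower by limma-voom with quality weights.

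**Figure D4:**
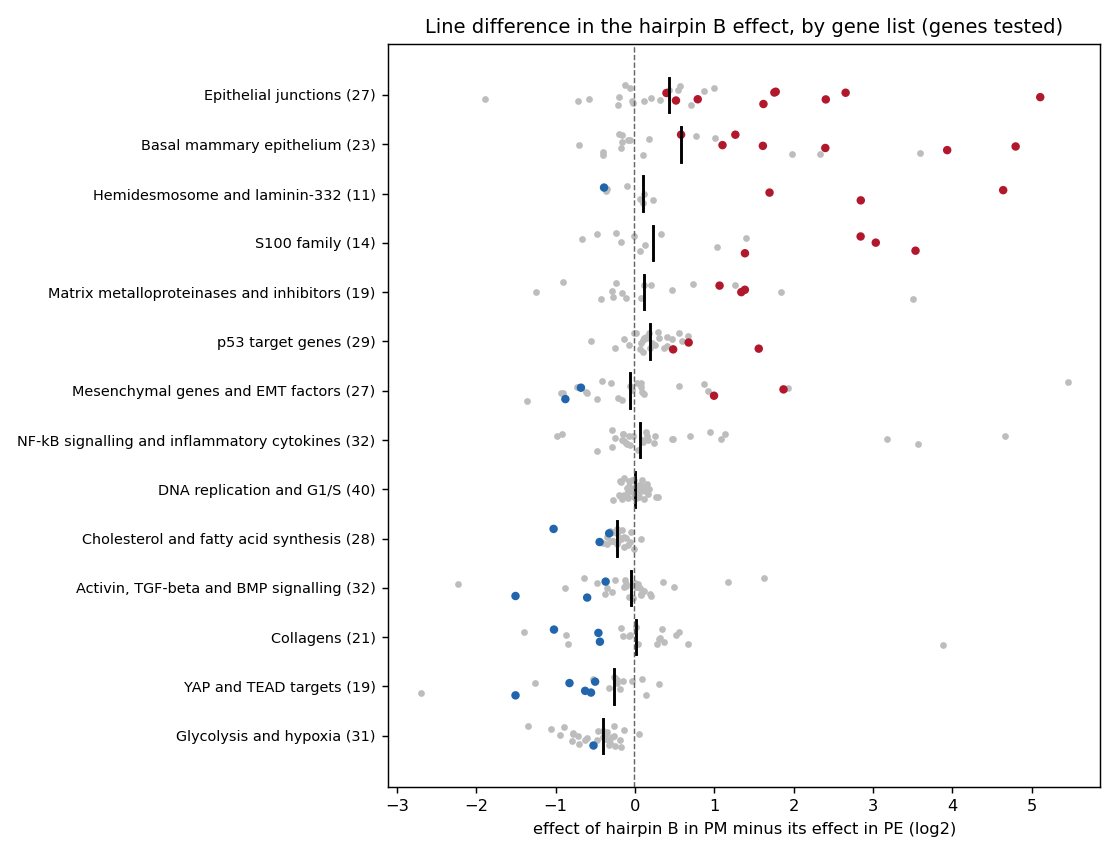
Line difference in the hairpin B effect (log2, horizontal axis) for the tested genes of 14 lists, with the number tested beside each name. Points are genes, red where called higher, blue where called lower and grey elsewhere, and black bars are list medians. Red points gather in the junction, basal, hemidesmosome and S100 lists, and the DNA replication genes lie close to 0.

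Some of the 510 genes with a line difference were also called in both lines with opposite signs. There were 49 such genes, 27 that rose in PM and fell in PE and 22 that fell in PM and rose in PE. No count of opposite calls over all tested genes is given. Of the 49, 42 were protein coding with at least 5 CPM on average in 1 of the 4 groups. COL17A1, described above, was 1 of the 6 with the largest smaller effect. RIPOR2, an inhibitor of RHOA, had 7.56, 4.41, 3.79 and 4.09 CPM in PM hairpin B, against 1.51, 0.920, 1.65 and 0.427 CPM in PM GFP libraries. In PE, RIPOR2 had 13.2, 5.45, 5.18 and 2.56 CPM with hairpin B, against 31.8, 18.7, 11.1 and 11.7 CPM with the GFP hairpin. The PM groups did not overlap and the PE groups did, in 1 library, and the difference was 3.56 (SE 0.65, adjusted p = 0.00336, edgeR).

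VCAN, a large matrix proteoglycan, had 83.8, 82.8, 74.3 and 61.3 CPM in PM hairpin B, against 39.9, 38.6, 41.2 and 37.5 CPM in PM GFP libraries. In PE, VCAN had 71.5, 69.8, 68.2 and 58.3 CPM with hairpin B, against 180, 145, 111 and 82.0 CPM with the GFP hairpin. VCAN rose in PM and fell in PE with no overlap in either line, while the hairpin B ranges of the lines overlapped. The difference was 1.87 (SE 0.29, adjusted p = 0.000612, edgeR). IL1RL1, the IL-33 receptor, had 2.94, 3.39, 1.56 and 4.67 CPM in PM hairpin B, against 1.37, 1.84, 0.830 and 0.264 CPM in PM GFP libraries. In PE, IL1RL1 had 21.4, 11.0, 8.57 and 6.56 CPM with hairpin B, against 67.4, 61.7, 40.3 and 42.5 CPM with the GFP hairpin. IL1RL1 therefore rose in PM, where the ranges overlapped, and fell in PE, with a difference of 3.71 (SE 0.69, adjusted p = 0.00426, edgeR) that limma-voom did not call.

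BTBD11, a BTB-domain protein with ankyrin repeats, averaged 4.58 ± 0.815 CPM in PM hairpin B and 1.34 ± 0.201 in PM GFP, and 3.94 ± 1.01 in PE hairpin B and 7.59 ± 2.61 in PE GFP libraries. Its groups did not overlap in either line, and the difference was 2.64 (SE 0.32, adjusted p = 9.17e-07, edgeR). FBXO2, an F-box protein that recognises glycoproteins, rose to 10.8 ± 2.25 CPM in PM hairpin B, against 5.56 ± 0.213 in PM GFP, and fell to 3.69 ± 1.16 in PE hairpin B, against 7.03 ± 2.99 in PE GFP libraries. The FBXO2 groups overlapped in PE, and the difference was 1.94 (SE 0.37, adjusted p = 0.00147, edgeR). MAP2, a microtubule protein, fell by 0.90 on the log2 scale in PM and rose by 0.69 in PE. MAP2 is also on the neuron marker list, whose 9 genes summed to 87.9 to 108.5 CPM in PM hairpin B and 108.2 to 131.9 in PM GFP, and 124.1 to 161.1 in PE hairpin B and 93.5 to 134.5 in PE GFP libraries.

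Targets of p53 rose in both lines, 24 of 29 in PM and 18 in PE, where 13.6% of all tested genes rose in each line. A positive line difference was found in 24 of the 29, against 10035 of 20820 tested genes, with a median of 0.191. In PM 1 of the 29 fell and in PE 2 fell, PMAIP1 in both lines and GADD45A in PE. TP53I3, GADD45A and FAS were called higher for the line difference and none lower, with 1 lower when PM hairpin B replicate 3 or PE GFP replicate 1 was left out, and 3 to 5 higher with any single library left out. FAS rose in PM (log2 effect 0.60) and had an effect of 0.12 in PE (adjusted p = 0.251), while GADD45A had an effect of 0.22 in PM (adjusted p = 0.0741, edgeR) and fell by 0.45 in PE. TP53I3, a quinone oxidoreductase induced by p53, had 140, 148, 187 and 95.3 CPM in PM hairpin B, against 26.2, 29.4, 30.7 and 34.6 CPM in PM GFP libraries. In PE, TP53I3 had 95.0, 96.5, 119 and 53.8 CPM with hairpin B, against 55.4, 52.9, 66.9 and 51.6 CPM with the GFP hairpin. The PM groups did not overlap and the PE groups did, and the difference was 1.56 (SE 0.28, adjusted p = 0.00341, edgeR). CDKN1A, the cell cycle inhibitor p21, rose by 1.81 in PM and 1.40 in PE, with a difference of 0.41 (SE 0.22, adjusted p = 0.495). MYC itself had 386, 399, 378 and 406 CPM in PM hairpin B, against 505, 550, 530 and 488 CPM in PM GFP libraries. In PE, MYC averaged 274.6 CPM with hairpin B and 275 CPM with the GFP hairpin. Its line difference was -0.40 (SE 0.09, adjusted p = 0.00546, edgeR). PM GFP libraries were above PE GFP libraries for MYC by 0.91 on the log2 scale (adjusted p = 1.35e-13, edgeR). Whether these reads came from the cells' own MYC gene was not tested. Of 29 MYC target genes, 1 was called lower, none when PM hairpin B replicate 3 and PE GFP replicate 1 were both left out, and the median was -0.012.

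Large groups of proliferation and housekeeping genes had no line difference past the threshold. None of 40 DNA replication and G1/S genes was called by edgeR, DESeq2 or limma-voom, and 1 had an unadjusted p under 0.05. Hairpin B lowered 32 of the 40 in PM and 31 in PE, with median log2 effects of -0.476 and -0.503, and the median line difference was -0.006. None of 74 cytosolic ribosomal protein genes was called by these tools, with 1 at an unadjusted p under 0.05. Of 32 NF-kB and inflammatory genes, 20 fell in PM and 23 in PE. None of them was called by edgeR, 1 was called higher by DESeq2, and 4 had an unadjusted p under 0.05. For 30 homologous recombination genes and 40 mitosis genes, edgeR, DESeq2 and limma-voom called none, with 2 and 4 at an unadjusted p under 0.05. Over all genes, 2587 had an unadjusted p under 0.05 for the line difference. Counts by list are not given for the fit with the replicate number as a block, which called 1003 genes.

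Hairpin A gave its own line difference, called for 1386 genes (6.66%), 575 higher (2.76%) and 811 lower (3.9%). The hairpin A and B differences share the GFP libraries of both lines, so their likeness is not counted, and values stand side by side. For CDH1 the line difference was 5.11 with hairpin B and 1.43 with hairpin A (adjusted p = 0.093), and for ESRP1 5.42 with hairpin B and 1.67 with hairpin A (adjusted p = 0.00184). For ITGB6 it was 4.63 with hairpin B and 0.74 with hairpin A (adjusted p = 0.327). CDH1 averaged 18.2 CPM in PM and 2.12 CPM in PE with hairpin A, so that the PE level lay between hairpin B and GFP libraries. For SMARCA1 the difference was -1.83 with hairpin B and -1.49 with hairpin A, and for PLAC8 -2.88 with hairpin B and -3.08 with hairpin A. Other named genes had opposite signs with the hairpins. TIMP1 had 1.06 with hairpin B and -0.83 with hairpin A (adjusted p = 4.08e-05, edgeR). KRT14 had 3.93 with hairpin B and -0.88 with hairpin A, and S100A8 3.54 and -0.94, but neither hairpin A value passed the threshold. Of the 23 basal genes, hairpin A called 1 higher and 5 lower, with a median of -0.423, against 0.58 with hairpin B.

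The contrast of the 2 line differences, hairpin B minus hairpin A, cancels the GFP libraries and was called for 1044 genes (5.01%, with 2.94% higher and 2.07% lower). It was 3.67 for CDH1 (adjusted p = 0.000818), 3.74 for ESRP1 (adjusted p = 2.14e-06), 3.89 for ITGB6 (adjusted p = 5.41e-06) and 2.89 for COL17A1 (adjusted p = 0.0018, edgeR). For PLAC8 it was 0.19 (adjusted p = 0.853) and for SMARCA1 -0.33 (adjusted p = 0.406), so no difference between hairpins was called there. PISD differed between hairpins by -1.25 (adjusted p = 1.74e-07, edgeR). For CHD1 the contrast was -0.01 (adjusted p = 0.983, edgeR). Of the 306 genes with a higher hairpin B effect in PM, 168 were also called higher in this contrast and 4 lower. Of the 204 with a lower effect, 50 were called lower and 4 higher. Why the hairpins differed at similar CHD1 levels was not tested. By list, 11 of the 23 basal genes were called higher in this contrast and none lower, against 2 higher and 2 lower of the 27 junction genes. Of the 29 p53 targets, 6 were called lower and none higher. Hairpin A called 16 of those 29 higher in its own line difference, with a median of 0.512.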

How the data were processed

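Gene-level counts of RNA-seq reads in 24 libraries were analysed, 16 of them in the contrast described. The deposited values are raw counts per gene with no normalization, and counting error is small beside the spread between libraries except where a gene has few reads. Per the submitters' processing notes, FastQC, Trim Galore 0.4.0, HISAT2 2.2.1 and featureCounts were used with GRCh38. Per the labels' protocols, poly(A) RNA was made into libraries with a directional kit. Strand setting, annotation release and the counting of multi-matching reads were not given in the sources used here.

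Of 59251 genes, 17236 had no count, and 20820 passed edgeR's filterByExpr. All 24 libraries entered 1 robust quasi-likelihood model with a mean for each group, in R 4.3.3 (edgeR 4.0.16, TMM factors), with Benjamini-Hochberg adjustment over all tested genes within each contrast and a threshold of 0.05. SE values are the log2 difference divided by the square root of F and are approximate. The median biological coefficient of variation was 18.96%. DESeq2 1.42.0 and limma 3.58.1 gave alternatives, along with other scalings, filters, sample sets and libraries left out, and a fit with the replicate number as a block. Scripts were tested on simulated data. Libraries of 1 group differed by more than sampling noise, with chi-square over degrees of freedom from 5.83 to 43.7 in 24 pairs.

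Leading genes were protein coding, averaged 5 CPM or more in any of the 4 groups and passed the threshold. They were the 12 with the largest difference each way and the 6 with the largest smaller effect among those with opposite directions. Also named were up to 4 called genes per list, CHD1 and MYC, and list members a sentence needed. No minimum level applied to these, and TJP3 and ERBB3 averaged under 5 CPM in all 4 groups. The members and lists were chosen with earlier results of these data known. Of the gene names, 57842 matched a current symbol, 370 an older one and 1039 none. Promoter windows are RefSeq's on GRCh38.p14, and 1 window per gene was used. Some called genes of the lists are not reported here.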

Additional observations from a re-analysis of the deposited data

Results flagged for a closer look

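The hairpin B effect differed between the lines in 510 genes by the interaction test, and 49 of these were also called in both lines in opposite directions. The line difference itself differed between hairpins B and A in 1044 genes. Among named genes, the interaction test gave a PM effect minus PE effect (log2) of 4.64 for COL17A1, 3.71 for IL1RL1, 3.56 for RIPOR2, 2.64 for BTBD11, 1.94 for FBXO2, 1.87 for VCAN and -0.40 for MYC.

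In 331 groups of 4 libraries over 83 named genes, 25 (7.55%) held a library whose gap to the next, over the group's range, exceeded Dixon's 95% critical value, and chance flags about 1 in 20 such groups. In PM hairpin B, these were KRT16 (12.73 CPM, high), SLC7A5 (754.5 CPM, high) and S100A14 (158.5 CPM, high) in replicate 4, and RIPOR2 (7.559 CPM, high) in replicate 1. In PM GFP libraries, 6 were in replicate 4: KRT14 (10.96 CPM, high), EEF1A2 (2.622 CPM, high), MAP2 (68.39 CPM, high), SMARCA1 (2.297 CPM, low), ADARB1 (31.37 CPM, low) and MCL1 (654.8 CPM, low). The others in PM GFP libraries were NRG1 (3.995 CPM, high) and COL12A1 (44.31 CPM, low) in replicate 2, FBXO2 (5.874 CPM, high) in replicate 1 and COL4A1 (120.2 CPM, high) in replicate 3.

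In PE hairpin B, LAD1 had 0.3207 CPM in replicate 2, TFRC 741.5 CPM and TIMP1 1516 CPM in replicate 4 and S100A9 55 CPM in replicate 1, all high. MCL1 at 607.7 CPM in replicate 3 and F3 at 163.6 CPM in replicate 1 were low. In PE GFP libraries, replicate 1, the shallow library, was high for COL17A1 (51.84 CPM) and low for ADARB1 (12.02 CPM) and MYC (248.5 CPM). Replicate 3 was high for IP6K3 (1.523 CPM) and OAS3 (81.14 CPM).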

How the results depend on the processing

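The direction of the line difference was kept in all 2102 comparisons of 81 called genes with 26 other settings, and 54 of the 81 kept their call in every setting. CDH3, EPPK1, PKP2, DSP, PERP, KRT6A, KRT6C, TRIM29 and AJUBA were not followed in this way. Among the leading genes on the lower side, NPR3 lost its call in 2 settings and NRG1 and MYEF2 in 1 each. Of the 510 genes called, 491 were among 525 with DESeq2 size factors, 457 among 541 with library sizes alone, 509 among 741 by the DESeq2 Wald test (474 higher), 438 among 526 by limma-voom, 446 among 573 with quality weights, 434 among 524 with at least 5 CPM in 4 libraries and 416 among 448 with the contrast's groups alone. With no filter 829 genes were called, 490 higher and 339 lower. A change of at least 2-fold as well left 274 genes (53 lower), 1211 for hairpin B in PM, 1292 in PE, 366 for the hairpin A line difference and 358 for hairpin B minus hairpin A. Without both PM hairpin B replicate 3 and PE GFP replicate 1, 369 genes were called, 350 of them among the 510, with 248 higher and 121 lower.

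With 1 library left out, the calls ranged from 419 to 615 for the line difference (258 to 346 higher, 150 to 269 lower), from 4928 to 6155 for hairpin B in PM, from 4726 to 5733 in PE, from 1032 to 1463 for the hairpin A line difference and from 826 to 1213 for hairpin B minus hairpin A. The log2 difference of CHD1 ranged from -0.206 to -0.013 and that of MYC from -0.43 to -0.352. With the replicate number as a block, 1003 genes were called (481 higher, 522 lower), 2184 for the hairpin A line difference and 1753 for hairpin B minus hairpin A. The labels do not say that a number marks a shared batch, though the sample numbers in the column names of the counts run replicate by replicate. Same-numbered libraries correlated by -0.037 to 0.118 in 24 pairs, over 0.1 in 2, and 13 of 16 libraries correlated best with their own number. Whether the replicate numbers mark batches is thus not settled.

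Depth limits the lowest values, as those of LAD1, CDH1 and ESRP1 in PE hairpin B rest on few reads, so their fold changes are less certain than their direction. Where limits are named beside a result, the cause of a lost call was not tested.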

Other observations

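Further genes had a line difference in lists not described above. GRHL3, an epithelial transcription factor of squamous differentiation, rose to 3.91 ± 1.19 CPM in PM hairpin B, against 0.836 ± 0.647 in PM GFP, and averaged 4.83 ± 1.72 in PE hairpin B and 5.24 ± 1.34 in PE GFP libraries, with a log2 difference of 2.31 (SE 0.52, adjusted p = 0.00974, edgeR). Of the 12 squamous differentiation genes tested, CLCA2 was the other called higher (1.99, adjusted p = 0.0416), a call lost in 16 of 26 settings, and the list had 1 call without PM hairpin B replicate 3 or without PE GFP replicate 1. The clade B serpins SERPINB1 and SERPINB5 differed by 0.66 and 0.49, both falling in PE. SLC7A5, a large neutral amino acid transporter, fell to 621 ± 89.6 CPM in PM hairpin B, against 978 ± 93.6 in PM GFP, and averaged 431 ± 59.1 in PE hairpin B and 413 ± 53.2 in PE GFP libraries. The transferrin receptor gene TFRC fell in PM and differed by -0.41 (SE 0.10, adjusted p = 0.0117). CTSD, a lysosomal protease, rose in both lines and differed by -0.89 (SE 0.20, adjusted p = 0.015). The calls of SLC7A5 and CTSD were lost without both PM hairpin B replicate 3 and PE GFP replicate 1. Of 36 interferon response genes, BST2 and OAS3 were called lower, by -0.55 and -0.43 (edgeR), and 3 were without PE GFP replicate 1.

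The histone genes H2BC21 (1.28, adjusted p = 0.0238) and H2BC12 (0.90, adjusted p = 0.00426, edgeR) were called higher of 29 replication-dependent histone genes, and H2BC21 lost its call without PM hairpin B replicate 3. Histone gene copies share sequence, and their messenger RNAs mostly lack the tail that poly(A) selection uses, so these levels are uncertain.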
